A study of Mus musculus with 18 samples.

Results

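Accessible chromatin was compared between livers of BALB/cJ and A/J, both of them albino strains of inbred mice with shared ancestry. The sites were the FAIRE-seq peaks of the BALB/cJ list and the A/J list on the 19 autosomes, merged into 1 site wherever peaks overlapped or touched. This gave 39843 sites from 29669 BALB/cJ and 29447 A/J peaks. For comparison, the lists of the 7 inbred strains merge into 50775 sites over all chromosomes. A peak was ranked by its percentile, the share of the autosomal peaks of its own list with a signal (the authors' peak score) no higher than its own. A site called in 1 strain was named strong where its peak reached percentile 75, and was assigned to the gene with the nearest protein-coding transcription start site (TSS). A promoter site lay within 1 kb of such a TSS and a distal site farther away.

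FAIRE-seq recovers DNA that is free of nucleosomes from formaldehyde-fixed tissue, so that promoters and enhancers in use appear as peaks of reads. Promoters of housekeeping genes are usually rich in GC and in CpG dinucleotides and are open in most tissues. Enhancers and the promoters of many genes that are specific to hepatocytes hold less GC and are bound by liver factors such as HNF4, FOXA, C/EBP and nuclear receptors. BALB/cJ and A/J both carry the albino form of Tyr, the tyrosinase of melanin synthesis, which is not used in liver. BALB/cJ carries a retroviral insertion in an intron of Zhx2, a repressor of Afp after birth, and A/J lacks complement component C5 (gene Hc) and carries a retrotransposon in Dysf, the muscle membrane protein dysferlin.

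Each strain was represented by 2 male mice that ate a diet high in fat and sucrose (HF/HS) as adults, and all 4 samples were of whole liver. The authors combined the 2 replicates of a strain into 1 list with the irreproducible discovery rate (IDR) framework. No spread between mice can therefore be computed, and no difference between the strains was tested. Intervals given with percentages are exact 95% binomial intervals (Clopper-Pearson) and cover counting error alone. Read depth is not in these lists. In whole liver, chromatin that is open in fewer cells and chromatin that is less open in each cell cannot be told apart. The A/J list stood apart from the other inbred lists in base composition, with a mean GC content of 60.1% ± 5.88 (SD over peaks) against 54.7% ± 6.55 for BALB/cJ and at most 56.6% for any of the other 5 inbred lists. This difference accompanies each result that follows, and its part in them was not tested. Among promoters of 6 hepatocyte marker genes, 2 held a site in both strains, Ttr and Serpina1a held a BALB/cJ-only site, and Alb and Cps1 held none. Of 23 autosomal markers of Kupffer, stellate, sinusoidal, bile duct and lymphoid cells, 2 had a promoter site in both strains and 18 in neither. For 3 it was in A/J only (Des at percentile 5.09, Cdh5 at 39.1 and Epcam at 1.69), and for 0 in BALB/cJ only. Over all 21275 autosomal protein-coding genes the shares were 47.6% in both strains, 1.4% in BALB/cJ only, 9.32% in A/J only and 41.4% in neither.

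The sequences of sites that carry the contrast are shown from mm9, the reference of C57BL/6J, as 200 bases at the summit of the peak on the + strand, with CG dinucleotides in capitals. Where needed, the window was moved to the nearest position with at most 30 bases of annotated UTR. They are reference sequence and not that of BALB/cJ or A/J. Predicted gene names aside, the highest BALB/cJ-only promoter sites were those of Haao (chr17:84246199-84246398), an enzyme of the route from tryptophan to NAD, and Flad1 (chr3:89215800-89215999), which makes FAD. The promoter of Cyp2e1 (chr7:147949388-147949587), the cytochrome P450 that oxidizes ethanol, was added after its values were seen.
Haao: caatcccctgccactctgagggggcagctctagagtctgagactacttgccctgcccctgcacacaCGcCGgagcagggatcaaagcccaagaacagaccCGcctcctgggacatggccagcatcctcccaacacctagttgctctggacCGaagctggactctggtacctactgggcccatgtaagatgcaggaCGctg
Flad1: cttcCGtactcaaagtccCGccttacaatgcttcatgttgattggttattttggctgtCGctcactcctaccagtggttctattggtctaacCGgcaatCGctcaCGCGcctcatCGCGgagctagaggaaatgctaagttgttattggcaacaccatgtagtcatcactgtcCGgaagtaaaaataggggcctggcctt
Cyp2e1: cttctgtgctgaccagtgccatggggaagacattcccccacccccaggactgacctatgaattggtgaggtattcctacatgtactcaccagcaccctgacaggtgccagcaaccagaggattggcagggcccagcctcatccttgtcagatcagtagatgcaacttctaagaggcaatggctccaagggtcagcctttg
These windows held 5, 10 and 0 CG dinucleotides, and their GC content was 60.5%, 49.0% and 54.5%.

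The highest BALB/cJ-only distal sites of named genes lay in introns and were assigned to Gcnt7 (chr2:172273972-172274171) and Ccdc33 (chr9:57940844-57941043).
Gcnt7: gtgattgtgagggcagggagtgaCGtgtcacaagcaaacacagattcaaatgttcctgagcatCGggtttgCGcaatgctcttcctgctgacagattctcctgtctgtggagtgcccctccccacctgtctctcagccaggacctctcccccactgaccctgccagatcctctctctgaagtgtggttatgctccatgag
Ccdc33: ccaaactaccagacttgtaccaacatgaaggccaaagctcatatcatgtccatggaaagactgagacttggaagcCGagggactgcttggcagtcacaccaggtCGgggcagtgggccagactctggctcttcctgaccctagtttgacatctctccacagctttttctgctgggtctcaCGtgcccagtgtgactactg
Each of these windows held 3 CG dinucleotides.

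The A/J-only promoter sites shown are those of Myadm (chr7:3289297-3289496) and Nudt7 (chr8:116657287-116657486), a peroxisomal enzyme that cleaves coenzyme A. The promoter of Ddi2 (chr4:141279373-141279572), a protease, was added after its values were seen because no other inbred list holds a peak there.
Myadm: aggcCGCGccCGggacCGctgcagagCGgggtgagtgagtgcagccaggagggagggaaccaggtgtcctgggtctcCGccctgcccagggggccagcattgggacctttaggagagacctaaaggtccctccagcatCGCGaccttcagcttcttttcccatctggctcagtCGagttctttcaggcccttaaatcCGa
Nudt7: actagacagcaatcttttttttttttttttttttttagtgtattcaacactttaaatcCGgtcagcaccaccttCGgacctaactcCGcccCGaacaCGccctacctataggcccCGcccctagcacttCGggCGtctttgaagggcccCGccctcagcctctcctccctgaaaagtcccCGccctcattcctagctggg
Ddi2: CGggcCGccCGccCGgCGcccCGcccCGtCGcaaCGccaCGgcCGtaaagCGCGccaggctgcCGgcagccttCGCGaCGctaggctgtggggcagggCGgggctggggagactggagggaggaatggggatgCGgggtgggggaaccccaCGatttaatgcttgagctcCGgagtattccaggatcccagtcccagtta
They held 10, 10 and 21 CG dinucleotides. The A/J-only distal site assigned to Cd163l1 (chr7:147407134-147407333), a scavenger receptor gene, is also shown, and its window consists mostly of a short repeat.
Cd163l1: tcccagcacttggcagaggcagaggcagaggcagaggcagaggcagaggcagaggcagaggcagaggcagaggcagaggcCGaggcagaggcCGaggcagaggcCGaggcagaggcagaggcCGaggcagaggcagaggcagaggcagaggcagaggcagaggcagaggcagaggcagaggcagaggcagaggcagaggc
Alignments with at least 95% identity over 150 bp placed this site at 9145 other positions of mm9, whereas the other 8 sites shown had 0 such copies.

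Both strains had a peak at 17872 sites, 44.9% of all sites (interval 44.4 to 45.3%). BALB/cJ alone had a peak at 11429 sites (28.7%) and A/J alone at 10542 sites (26.5%). As a share of each list, 61.5% of BALB/cJ peaks overlapped an A/J peak and 64.2% of A/J peaks overlapped a BALB/cJ peak. Among the 21 pairs of inbred lists this shared percentage ranked 20th from the top. The 6 pairs with A/J shared 41.7 to 48.9% of sites and the 15 pairs without A/J shared 59.3 to 73.4%. BALB/cJ with each of the other 5 inbred lists shared 59.7 to 72.8%. The low overlap of the albino pair was thus within the range of A/J against any strain and below the range of BALB/cJ against the others.

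Most sites found in 1 strain were weak. The median percentile was 28.7 for BALB/cJ-only sites and 27.6 for A/J-only sites, whereas shared sites had medians of 68.0 in BALB/cJ and 68.6 in A/J. Of the 7397 sites at percentile 75 or more in BALB/cJ, 2.64% had no A/J peak, and of the 7303 such sites in A/J, 0.602% had no BALB/cJ peak. Below percentile 25 the values were 69.3% and 68.7%. One-strain sites were also narrower, with median widths of 378 bp in BALB/cJ and 416 bp in A/J against 821 bp for shared sites. A shared site joins peaks of both strains and is widened by this merging. Where it held 1 peak of each strain, the median peak width was 696 bp in BALB/cJ and 614 bp in A/J.

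The 2 classes of one-strain sites differed in where they lay. At a promoter were 7.63% of BALB/cJ-only sites (interval 7.15 to 8.13%), 37.6% of A/J-only sites (36.7 to 38.6%) and 55.7% of shared sites (54.96 to 56.4%). BALB/cJ-only sites lay in introns in 47.9% and between genes in 37.6% of cases, and A/J-only sites overlapped an exon in 52.9%. Of the 14793 promoter sites, 67.3% were shared, 5.89% were called in BALB/cJ only and 26.8% in A/J only. Of the 25050 distal sites, 31.6% were shared, 42.1% were called in BALB/cJ only and 26.2% in A/J only.

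The calls in the other 5 inbred lists (C57BL/6J, AKR/J, DBA/2J, CBA/J and C3H/HeJ) separated the classes further. Of BALB/cJ-only sites, 87.1% had a peak in another inbred strain and 28.8% had one in all 5. Of A/J-only sites, 32.8% had a peak in another strain and 1.51% in all 5. In bins of GC content the A/J-only share with a peak in another strain fell from 78.6% under 45% GC to 18.9% at 65% or more. The BALB/cJ-only share stayed between 85.6 and 87.5% in the bins that held such sites. The 7085 A/J-only sites without a peak in another list made up 67.2% of their class (interval 66.3 to 68.1%), against 1479 sites or 12.9% (12.3 to 13.6%) for BALB/cJ. Taken list by list, 44.2% (DBA/2J) to 69.9% (CBA/J) of BALB/cJ-only sites and 11.1% (AKR/J) to 17.3% (C3H/HeJ) of A/J-only sites were called in a given strain. Among promoter sites alone, 8.83% of 872 BALB/cJ-only and 73.3% of 3968 A/J-only sites had no peak elsewhere. Both counts include promoter sites within 1 kb of a peak of the other strain.

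**Figure D1:**
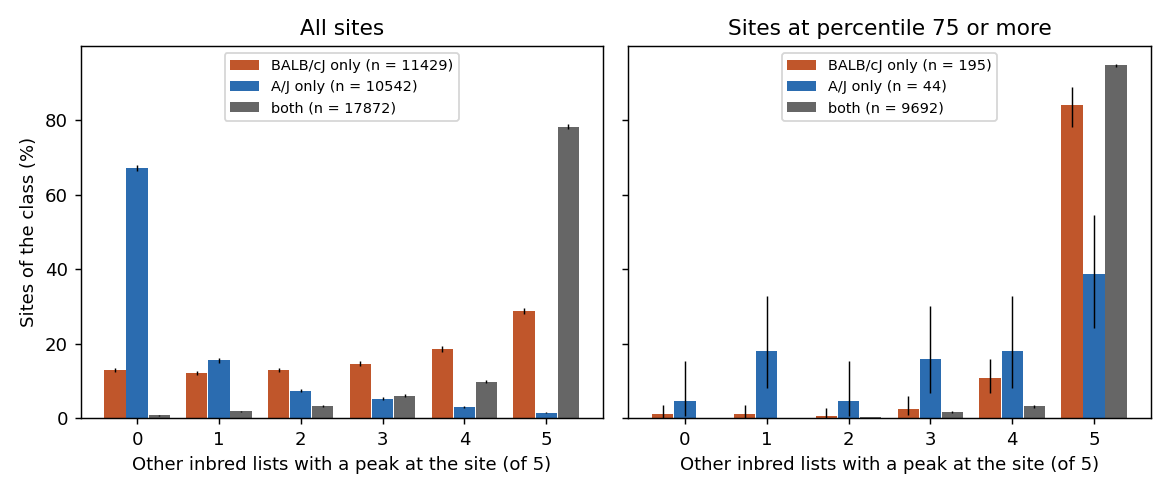
Bars give the percentage of sites (vertical axis) with a peak in 0 to 5 of the other inbred lists (horizontal axis) for BALB/cJ-only, A/J-only and shared sites, with exact 95% binomial intervals. Among all sites, A/J-only sites peak at 0 other lists (67.2%) and shared sites at 5 (78.3%), and among sites at percentile 75 or more the BALB/cJ-only sites peak at 5 (84.1%).

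The GC content of a site moved with the strain in which it was called. BALB/cJ-only sites had a mean GC content of 49.7% ± 3.59 (SD over sites), shared sites 57.9% ± 5.88 and A/J-only sites 61.2% ± 6.09. CpG dinucleotides numbered 1.60 per 100 bp in BALB/cJ-only, 4.78 in shared and 4.67 in A/J-only sites. From 45 to 50% GC, 77.8% of 6070 sites were called in BALB/cJ only and 2.24% in A/J only. From 60 to 65% GC, 0.295% of 7797 sites were called in BALB/cJ only and 45.2% in A/J only. At 65% GC or more, 0 of 4936 sites were called in BALB/cJ only. The gap of 11.6 percentage points between the mean GC of the classes ranked 2nd among the 21 pairs of inbred lists. All 6 pairs with A/J had a gap of at least 9.84 points, and the largest gap among the 15 other pairs was 7.97.

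**Figure D2:**
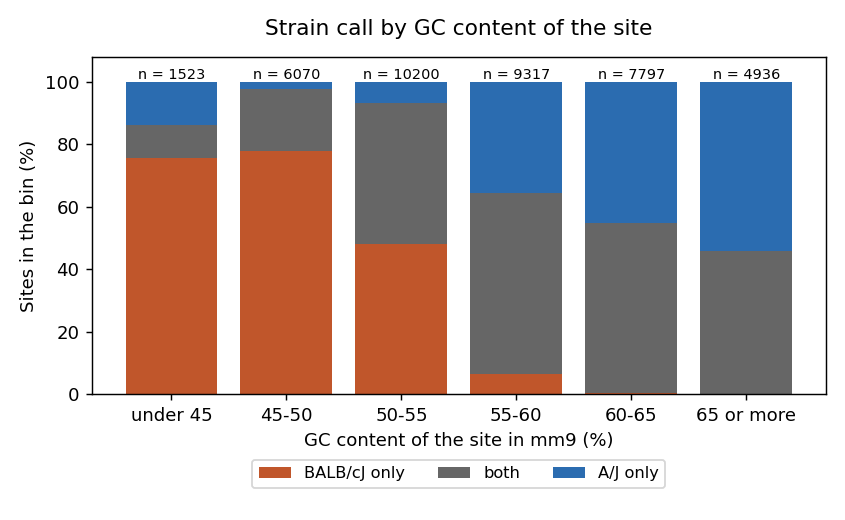
Stacked bars give the percentage of sites (vertical axis) called in BALB/cJ only, in both strains and in A/J only, in bins of GC content (horizontal axis, percent) with the number of sites above each bar. The BALB/cJ-only part shrinks from 77.8% at 45-50% GC to 0.295% at 60-65% GC, while the A/J-only part reaches 54.3% at 65% GC or more.

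Within a narrow band of GC content, from 52 to 58%, part of the contrast between the classes was still seen. This band was chosen after the GC contents were seen. It held 6508 shared, 2977 BALB/cJ-only and 2120 A/J-only sites. The band did not make the classes equal in GC content. Its mean was 53.8% for BALB/cJ-only, 55.1% for shared and 56.0% for A/J-only sites within the band. Promoters made up 9.002% of the BALB/cJ-only and 13.5% of the A/J-only sites there, a smaller distance than over all sites. A peak in another inbred strain was found at 86.8% of the BALB/cJ-only and 51.2% of the A/J-only sites, and a peak in all 5 at 23.6% and 2.69%.

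Strong one-strain sites were few. BALB/cJ had 195 of them, 0.489% of all sites, of which 16 were at promoters and 179 were distal. A/J had 44, 0.11% of all sites, of which 25 were at promoters and 19 were distal. The percentile nearest the threshold from above was 75.004 in BALB/cJ (a site near Psmg1) and 75.2 in A/J (the Stx8 promoter), and from below 74.99 (near Luc7l) and 74.8 (the Rhbg promoter). A peak in all 5 other inbred lists was found at 164 of the 195 strong BALB/cJ-only sites, 84.1% (interval 78.2 to 88.9%), and at 17 of the 44 strong A/J-only sites, 38.6% (24.4 to 54.5%). At most of the strong BALB/cJ-only sites, then, A/J was the 1 inbred list of 7 without a peak.

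Of the 16 strong BALB/cJ-only promoter sites, 12 had a peak in all 5 other lists, and the median percentile there was 50 or more at 14. The Cyp2e1 promoter site ranked at percentile 80.9 in BALB/cJ, and where A/J had no peak the other lists placed it at 12.4 (DBA/2J), 56.1 (AKR/J), 59.9 (C3H/HeJ), 68.7 (CBA/J) and 74.4 (C57BL/6J). Inmt, which methylates indoles such as tryptamine, had a site 888 bp upstream of its TSS at percentile 79.2, called in all 5 other lists at a median of 68.8. Slc38a7, a glutamine transporter, stood at 80.6 and Dhrs7b, a reductase of peroxisomal ether lipid synthesis, at 76.9, with medians of 77.3 and 77.9 in the other lists. The Flad1 promoter stood at 82.6 in BALB/cJ and between 58.9 (C3H/HeJ) and 88.2 (DBA/2J) elsewhere. 

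The Haao promoter went another way. It had the highest percentile of the class, 84.0 in BALB/cJ, no peak in A/J or CBA/J, and percentiles of 7.06 in AKR/J, 20.6 in C3H/HeJ, 31.1 in DBA/2J and 79.2 in C57BL/6J. With distal sites counted too, Haao and Arrdc2 and Rreb1 each had 2 strong BALB/cJ-only sites. The other Haao site, both Rreb1 sites and an Arrdc2 site were distal. The remaining named promoters were those of Taok3 (81.3), a kinase, Uhmk1 (80.4), another kinase, H2-T24 (77.0), a class I gene of the major histocompatibility complex, and Rhobtb1 (76.6). The 16 promoter sites had a mean GC content of 50.1% ± 5.01, and Uhmk1 was the highest of them at 64.0%. The Uhmk1 site was called in 4 other lists, at 73.9 to 88.5, and had no peak in A/J and in C3H/HeJ. An A/J peak lay within 1 kb of the Uhmk1, Taok3 and Rhobtb1 sites.

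Strong BALB/cJ-only distal sites lay between genes in 79 of 179 cases, in introns in 77 and on an exon in 23. Their median distance to the nearest TSS was 15419 bp, and 152 of them had a peak in all 5 other lists. The highest was the site of Gcnt7, at percentile 98.6, without a peak in AKR/J and at 63.9 to 76.3 in the other 4 lists. A site 1148 bp into Cyp2c67, a cytochrome P450, stood at 89.1. A site 2345 bp upstream of Serpina3n, an acute-phase inhibitor of proteases, stood at 86.5 and between 70.6 and 82.4 in the other 5 lists. The others named were near Ccdc33 (89.6), Pdlim1 (89.1), Tmem50a (88.4), Pdilt (87.9), Cpsf4l (85.7) and Dnaja2 (85.7). Among these BALB/cJ-only distal sites, the Tmem50a site had the widest range in the other lists, from 16.6 in AKR/J to 89.7 in C3H/HeJ.

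Of the 397 autosomal genes in the lists used here, 11 (2.77%) were the nearest gene of a strong BALB/cJ-only site and 0 of a strong A/J-only site. Over all 21275 autosomal protein-coding genes the numbers were 192 (0.902%) and 41 (0.193%). The 11 sites had a peak in all 5 other lists, as did 164 of the 195 strong BALB/cJ-only sites. Besides Cyp2e1 and Serpina3n they were G6pc (percentile 75.5 in BALB/cJ), the phosphatase that releases glucose, Ppargc1b (79.8), a coactivator of mitochondrial and lipogenic genes, and Fads2 (78.4), a desaturase of polyunsaturated fatty acids. Acot1 (79.2) is a thioesterase induced by fatty acids, Lipc (76.7) is hepatic lipase, and Cebpb (81.0) is a transcription factor of the acute phase. Cry2 (85.6) is a repressor in the circadian clock, Irf2 (75.3) is a factor of the interferon response, and H2-T23 (75.8) encodes a nonclassical class I molecule. Their GC content lay between 44.1 and 51.4%, and their median percentile in the other 5 lists between 59.9 and 79.1. All but the Cyp2e1 site, 10 of the 11, were distal, from 2172 bp (H2-T23) to 102850 bp (Irf2) from the TSS. Of the genes with these distal sites, Serpina3n and Lipc had no promoter site. The promoters of the others were called in both strains. An A/J peak lay within 1 kb of the Cebpb and Cry2 sites.

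The 25 strong A/J-only promoter sites averaged 63.8% ± 5.01 in GC content. Nudt7 stood at percentile 85.2 in A/J and at 73.5 to 85.9 in the other 5 lists, so that BALB/cJ was the list without a peak, and its site had one of the lowest GC contents of the class at 53.7%. Acot11, a thioesterase of long-chain acyl-CoA, stood at 83.8 and had no peak in C3H/HeJ and CBA/J either. Myadm stood at 85.9 in A/J and at 41.9 to 71.8 in the others, and Ccdc68 at 85.5 and 65.01 to 77.0. A BALB/cJ peak lay within 1 kb of the Myadm site. Tc2n (82.3), Prr5 (80.9) and Hapln4 (80.9) were called in all 5 others, at medians of 32.9, 46.5 and 51.0. Shroom3 (81.2), a regulator of cell shape, had a peak in C57BL/6J alone among the others, at 71.1. The other named sites were Dact2 (80.3), a Wnt signaling gene, and Fgf22 (79.6), a fibroblast growth factor.

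Strong A/J-only distal sites were led by Grin2c at 86.1, a site 3065 bp wide that the other 5 lists placed at 66.6 to 90.1. Tcf3 (81.8), Pik3c3 (81.1), Cradd (80.5), Efhd2 (80.1) and Pde6h (77.7) followed. Several lay in repeated sequence. Of the 19 sites, 6 had another copy in mm9, among them Cd163l1 with 9145 copies and Pik3c3 with 61. Among the 179 strong BALB/cJ-only distal sites 6 had such a copy, and among the 16 and 25 strong promoter sites 0 did. How unique mapping treated these copies in each strain was not tested.

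Strong sites found in a single inbred list of 7 numbered 2 for each strain. In A/J they were the Ddi2 promoter (78.4) and a site 241435 bp from Olfr161 (80.5), which has 1 copy elsewhere in mm9. Among those of BALB/cJ was a site in an exon 60556 bp from the TSS of Pgbd5 (77.5). These genes were named after their values were seen.

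**Figure D3:**
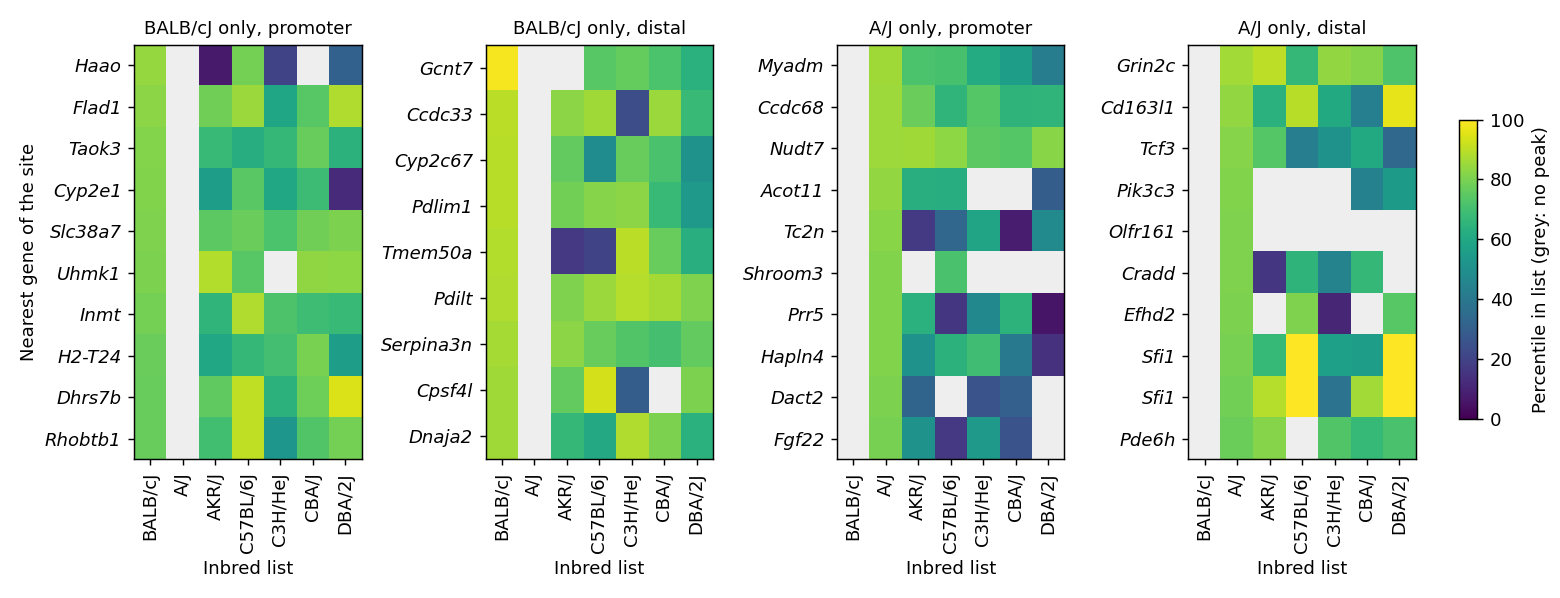
Colors give the percentile of each named strong one-strain site (rows, by nearest gene) in the 7 inbred lists (columns), and grey marks a list without a peak. For BALB/cJ-only sites the A/J column is grey and nearly all others are filled, as for Serpina3n at 70.6 to 82.4, whereas A/J-only sites have further grey cells, as for Shroom3 and Olfr161.

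Sites called in both strains differed in rank. The difference of percentiles, BALB/cJ minus A/J, had a median of -1.28 over the 17872 shared sites and a median absolute value of 16.6. A difference of at least 25 percentiles was found with BALB/cJ higher at 3149 sites (17.6%) and with A/J higher at 3092 sites (17.3%), and 34.6% of sites differed by less than 10. Promoter and distal sites leaned opposite ways. The median difference was -5.16 at promoters and 9.90 at distal sites, and BALB/cJ was higher by at least 25 at 5.86% of promoter and 32.4% of distal sites. Percentiles of the strains correlated with Pearson's r of 0.548 over the 9953 promoter sites and 0.276 over the 7919 distal sites, which are sites of the same lists and not replicates.

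The difference in rank followed GC content. From 45 to 50% GC the median difference was 31.7 (quartiles 10.9 and 47.8), and at 65% GC or more it was -20.6 (quartiles -37.8 and -6.79). Sites at least 25 higher in BALB/cJ held 51.95% GC on average (± 3.35, SD), against 61.9% ± 5.55 for sites at least 25 higher in A/J. The median percentile in the other 5 lists was nearer to the BALB/cJ value at 91.9% of 3146 sites higher in BALB/cJ (interval 90.9 to 92.8%) and at 79.2% of 3033 sites higher in A/J (77.7 to 80.7%), leaving out sites without a peak in another list. Sites that went against the direction of GC were rare. BALB/cJ was higher by at least 25 at 41 of 6508 shared sites with 60% GC or more, and A/J at 57 of 1371 with less than 50%.

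**Figure D4:**
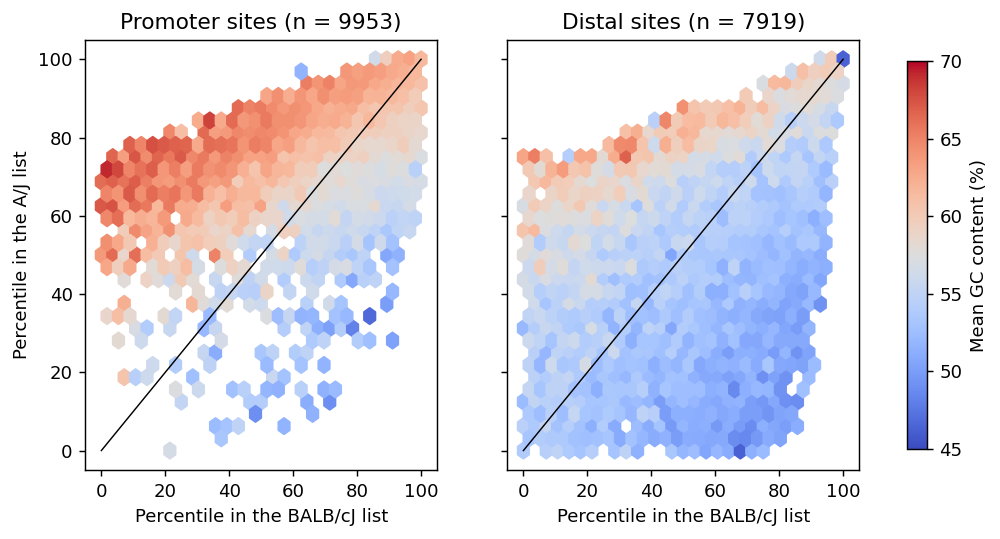
Each hexagon covers at least 3 shared sites, placed by the percentile in the BALB/cJ list (horizontal axis) and the A/J list (vertical axis) and colored by mean GC content in percent, with the line of equal percentile. In both panels hexagons far above the line are mostly richer in GC than those far below it, and the median difference, BALB/cJ minus A/J, is -5.16 at promoters and 9.90 at distal sites.

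The 8 named shared sites with the largest differences toward BALB/cJ were 1 promoter and otherwise distal sites, and all 8 had a peak in the 5 other lists. Fam47e had a promoter site at percentile 86.8 in BALB/cJ and 0.479 in A/J, and at 74.8 to 89.2 elsewhere. An intronic site of Bcl6, a transcriptional repressor, stood at 85.1 and 2.13. A site in Hlf, a clock-controlled PAR bZIP factor, stood at 83.9 and 3.18. An intronic site of Mgll, the monoacylglycerol lipase, stood at 86.4 and 5.93, and a site 12887 bp upstream of Nnmt, the nicotinamide N-methyltransferase, at 81.8 and 2.35. Rassf3 (86.4 and 3.65), Hs6st1 (88.9 and 6.78) and Sdr9c7 (85.7 and 5.09) completed the group, whose GC content ran from 47.7 to 56.1%.

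Toward A/J, the largest difference among named genes was a site of Sfi1 at percentile 3.94 in BALB/cJ and 89.9 in A/J. The promoter of Anxa4, a calcium-dependent phospholipid-binding protein, stood at 0.913 in BALB/cJ and 84.7 in A/J, and at 70.9 to 81.9 in the 4 other lists that called it. A site near Shmt2, a mitochondrial enzyme of serine and folate metabolism, stood at 0.0607 and 74.5, and an intronic site assigned to Coq7, of ubiquinone synthesis, at 0.283 and 74.3. The promoters of Itpripl1 (3.62 and 77.8), Igsf3 (2.34 and 76.3), Celsr3 (2.71 and 76.1) and Card10 (5.28 and 78.5) followed. Their GC content ran from 56.7 to 71.2%, and 2 of the 8 had a peak in all 5 other lists.

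At shared sites, which are defined by overlapping or touching peaks, the peaks of the strains mostly lay close together. Of the shared sites 93.0% held 1 peak of each strain, and at these 16629 sites the summits were a median of 20 bp apart and within 100 bp at 86.3%. BALB/cJ peaks were wider at 74.4% of them, with median widths of 696 bp against 614 bp.

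Promoters of genes grouped by function differed in the strain that called them. Of 21275 autosomal protein-coding genes, 47.6% had a promoter site in both strains, 1.4% had one in BALB/cJ only, 9.32% in A/J only and 41.4% in neither. Across all genes A/J-only promoters thus outnumbered BALB/cJ-only ones, 1982 against 298. In the xenobiotic and acute-phase lists BALB/cJ-only promoters were the more numerous. Of 48 xenobiotic genes, 10 had a BALB/cJ-only promoter site and 2 an A/J-only one (Gstm3 and Sult5a1), with 11 shared. The 10 included Cyp2e1, Cyp2d9 (percentile 67.1), Ugt1a1 (56.8), which conjugates bilirubin, Cyp2b10 (37.1) and Cyp3a11 (10.3). Of 34 acute-phase and complement genes, 8 had a BALB/cJ-only site and 0 an A/J-only one. They were Orm1 (65.5) and Orm3 (58.8), the acid glycoproteins, Fga (60.3), a chain of fibrinogen, Hpx (36.3), the heme carrier hemopexin, Mbl1 (51.9) and Mbl2 (10.8), lectins that start complement, C9 (41.2) and Serpina1a (30.7), an inhibitor of elastase.

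Smaller numbers were found in the other metabolic lists. In cholesterol and bile acid metabolism 3 of 23 genes were BALB/cJ only, namely Cyp8b1 (72.1), which sets the cholic acid share of bile acids, and the bile salt transporters Abcb11 (34.8) and Slc10a1 (35.0), and 0 were A/J only. Among 20 genes of lipid droplets and lipolysis, Cidec (62.6), Cideb (19.8) and Fabp1 (42.8) were BALB/cJ only and 0 were A/J only. The apolipoproteins (13 genes) had Apoa2 (73.7) in BALB/cJ only and Apom (14.6) in A/J only, and the glucose list (27 genes) had Gys2 (68.8), liver glycogen synthase, and Igfbp2 (47.3) in the same order. Among 25 nuclear receptors and coactivators, Nr1i2 (51.7), the receptor PXR, and Ppargc1a (54.5) were BALB/cJ only, and Pparg (48.1), Vdr (34.1) and Nr2f1 (33.1) were A/J only. Of 12 genes linked to Zhx2, 2 were BALB/cJ only, Cyp2a22 (46.7) and Cyp4a12a (34.4).

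Several of the lists above were mostly shared, with 11 of 13 apolipoproteins, 22 of 27 glucose genes and 19 of 25 nuclear receptors. Shared promoters were also found for 17 of 23 genes of cholesterol and bile acids and 11 of 20 of lipid droplets and lipolysis. They were fewer for acute-phase and complement genes (13 of 34) and genes linked to Zhx2 (2 of 12). The following lists were mostly shared too. Promoters were called in both strains for 18 of 18 circadian genes, 24 of 25 genes of lipid synthesis, 15 of 16 hepatocyte factors, 21 of 25 genes of fatty acid oxidation and 22 of 24 genes of stress response, where Asns (29.2) and Gclc (57.1) were A/J only. In the interferon and MHC list 24 of 39 were shared and Irf5 (62.7) and Gbp7 (31.2) were A/J only, and in the chromatin silencing list 16 of 21 were shared and the DNA methyltransferase genes Dnmt3b (47.3) and Dnmt3l (57.9) were A/J only. The 31 listed genes with a BALB/cJ-only promoter site had sites of 42.1 to 56.0% GC, and the 17 with an A/J-only site 55.2 to 72.3%, so that the GC ranges of the groups overlapped by less than 1 percentage point.

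Distal sites nearest to the listed genes were also counted. Over all 25050 distal sites 42.1% were BALB/cJ only and 26.2% A/J only. The BALB/cJ-only share was 76.5% of 17 sites for genes linked to Zhx2, 62.3% of 69 for acute-phase and complement genes, 55.1% of 136 for glucose genes, 53.8% of 26 for apolipoproteins and 50.8% of 65 for fatty acid oxidation. It was 48.3% of 89 for cholesterol and bile acids, 47.5% of 40 for lipid droplets and lipolysis, 46.4% of 69 for xenobiotic genes, 45.9% of 61 for stress response and 42.9% of 126 for lipid synthesis. Xenobiotic genes, with 26.1% of their distal sites in A/J only, were thus near the overall shares at distal sites. Lower shares were found for nuclear receptors (38.5% of 182), circadian genes (35.9% of 78), interferon and MHC genes (35.7% of 56), strain loci (33.3% of 18), chromatin silencing (30.2% of 43) and hepatocyte factors (28.8% of 198). The mean GC content of these sites ran from 48.7% for genes linked to Zhx2 to 54.5% for chromatin silencing, against 53.5% over all distal sites.

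Genes at which one or both strains are known to carry variants formed a further list. Of its 10 autosomal genes, Zhx2 and a had a promoter site in both strains, Dysf had one in A/J only and 7 had none. Zhx2 had 4 sites and each was called in both strains. The site at its TSS stood at percentile 51.6 in BALB/cJ and 63.3 in A/J, and the next, 630 bp downstream, at 17.3 and 53.4 with no peak in the other 5 lists. The 2 sites farther inside the gene stood at 52.4 and 81.8 in BALB/cJ and 8.36 and 11.4 in A/J. In the other 5 lists they stood at 36.9 to 53.6 and 73.2 to 88.7, nearer to BALB/cJ. Afp had 2 weak BALB/cJ-only distal sites (9.14 and 16.7) and no promoter site. The former was also called in AKR/J and C57BL/6J, and the latter in DBA/2J. Tyr had 1 BALB/cJ-only site, 81634 bp from its TSS, at percentile 5.95, and no promoter site, and Mx1 had 1 at 5.10. The Tyr site was also called in AKR/J and CBA/J, and the Mx1 site in 4 other lists. Dysf had an A/J-only promoter site at 56.6, shared with 2 other lists, and an exonic site at 86.7 and 84.0. A site 8603 bp upstream of Apobec3, a restriction factor of retroviruses, stood at 23.4 in BALB/cJ and 70.2 in A/J. The 4 other lists that called it placed it at 29.9 to 39.8. The promoter of the agouti gene a stood at 95.6 and 99.1. Hc had no site.

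Part of the difference lay in 2 intervals and went against the GC content of the classes. Of the 346 A/J-only sites with less than 50% GC, 36 lay between 15 and 20 Mb of chromosome 8 and 22 in the first 5 Mb of chromosome 11. On chromosome 8, from 15719056 to 19975277 (mm9), there were 45 A/J-only, 10 shared and 9 BALB/cJ-only sites with a mean GC content of 46.7%, most of the low-GC ones nearest to the predicted genes Gm15319 and 4930467E23Rik. A/J had 55 peaks there and BALB/cJ 19. The other lists had 107 (DBA/2J), 64 (C57BL/6J), 53 (AKR/J), 44 (CBA/J) and 28 (C3H/HeJ). On chromosome 11, from 3000001 to 3100000 (mm9), an interval of 0.1 Mb that includes the named sites of Sfi1, there were 36 A/J-only, 11 shared and 0 BALB/cJ-only sites. BALB/cJ had 11 peaks there and A/J 49, and the others had 23 (C3H/HeJ), 31 (CBA/J), 49 (DBA/2J), 51 (AKR/J) and 62 (C57BL/6J). In both intervals BALB/cJ had the fewest peaks of the 7 lists. Both were chosen after the values were seen, and whether the strains differ in the number of copies of these sequences was not tested.

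**Figure D5:**
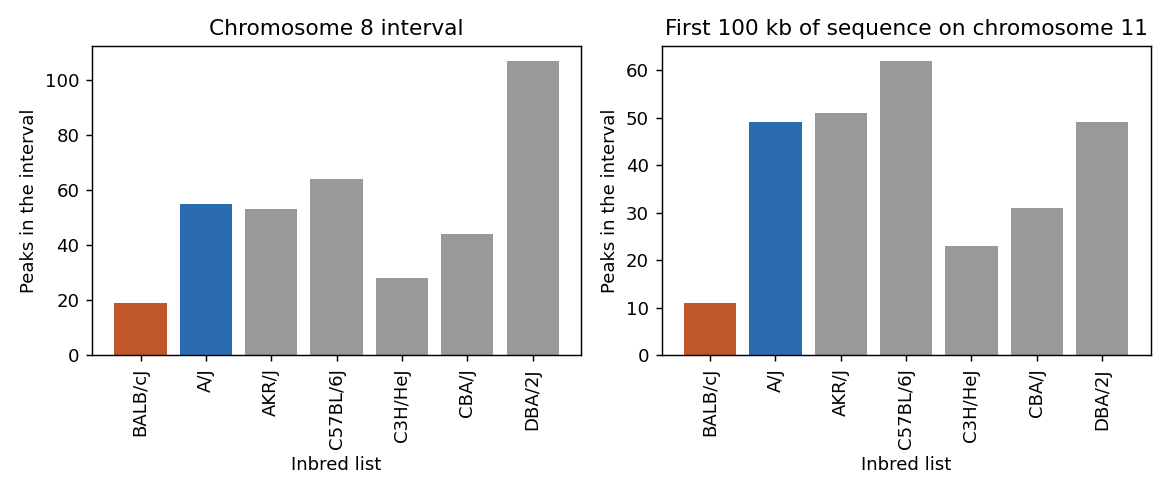
Bars give the number of peaks (vertical axis) of each inbred list (horizontal axis) in the chromosome 8 interval (left) and the first 0.1 Mb of assembled sequence on chromosome 11 (right). BALB/cJ has the lowest bar in both, 19 and 11 peaks, against 55 and 49 in A/J.

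Among strong sites, 5 A/J-only sites had less than 50% GC and 4 BALB/cJ-only sites had 57% or more. The former were those of Olfr161 (46.1%), Cradd (47.8%), Pde6h (49.0%), Sfi1 (48.9%) and Gm15319 (45.8%), and the latter those of Uhmk1, Rab44 (58.5%), Arrdc2 (58.1%) and Pgbd5 (57.3%). The Olfr161 site had 1 copy elsewhere in mm9 and the Gm15319 site 5. The Cradd site, which has 0 copies elsewhere in mm9, stood at 80.5 in A/J and at 15.7 to 66.7 in 4 other lists, and the Pde6h site at 77.7 and 67.2 to 82.0. A BALB/cJ peak lay within 1 kb of the Cradd site.

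Words of known factor motifs were counted on both strands in the 300 bp at the centre of each site, with 12 words searched. The SP1 word GGGCGG was found at 7.07% of BALB/cJ-only, 41.1% of A/J-only and 45.5% of shared sites, against 33.3% of all sites. Liver factor words were more frequent at BALB/cJ-only sites. TTGCNNAA (C/EBP) was at 18.97% of BALB/cJ-only and 6.42% of A/J-only sites (all sites 11.1%), TGTTTAC (FOXA) at 7.32% and 1.83% (4.06%), CAAAGTCC (HNF4) at 4.87% and 1.39% (2.82%) and AGGTCA (nuclear receptors) at 34.6% and 16.97% (23.2%). The strong BALB/cJ-only sites held AGGTCA in 42.1%, FOXA in 9.74%, HNF4 in 6.67% and C/EBP words in 16.4% of cases. The C/EBP share was thus lower than over all BALB/cJ-only sites and the other liver factor shares were higher. The share of GGGCGG was higher too, at 9.74%. Between 52 and 58% GC the distances were smaller, with 34.1% and 22.9% for AGGTCA, 14.5% and 10.2% for C/EBP and 9.77% and 22.5% for GGGCGG. The STAT word TTCNNNGAA was at 8.29% and 5.66% of sites (all sites 6.64%) and in the band of GC at 7.42% and 8.02%. Of the other words, AP-1 (TGANTCA) was at 10.7% and 5.21% (7.17%), CCAAT at 34.3% and 20.3% (28.2%), the E-box CACGTG at 9.17% and 6.13% (8.18%), TGACGTCA (CRE) at 0.656% and 0.446% (1.05%), the ETS word CCGGAAG at 2.05% and 5.14% (6.76%) and the CTCF core CCCTCT at 26.5% and 35.8% (30.7%). A word is a match of letters and not a bound site, and matches of different words were allowed to overlap.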

How the data were processed

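Livers of HF/HS-fed male mice, 2 per strain, were profiled by FAIRE-seq. The authors mapped reads with bowtie1 to versions of mm9 that carried the SNPs of each strain, kept reads with a single location, called peaks with F-seq and joined replicates by IDR. The versions of these tools are not given in the sources, nor is the IDR threshold. Each deposited list holds peak positions on mm9 and a signal value, the score of the authors' caller, whose scaling between strains is not stated. Signal was therefore used as a percentile within a list. Reads and counts were not analysed here, and depth is unknown from the lists. The paper's supplement gives the number of reads of each replicate, which was not used here.

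The BALB/cJ and A/J lists were merged on autosomes, and any overlap with a peak of another inbred list counted as a call there. Where a strain had several peaks in a site, the highest percentile was used. TSSs came from GENCODE M1 on NCBIM37 (mm9), and GC content, motif words and sequences from that assembly. Copies were sought with blastn (2.17.0; at least 95% identity over 150 bp, expect value 1e-10). Of 409 listed genes, 407 matched by name, 5 of them through synonyms in a RefSeq table. The named sites were, by class, the 10 strong sites of highest percentile whose gene name is not a predicted or clone name, the 8 shared sites with the largest difference each way, every listed gene nearest to a strong site, and the strain loci; repeats of a gene were kept. Some items that meet this rule are not reported here. The sites, gene lists and rules were chosen with earlier results of these data known. The comparison of pairs of lists, the band of GC content and the 2 intervals were added after values were seen.

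Merging, overlap and TSS assignment were tested on simulated data and equalled base-by-base answers in 50 of 50 runs. Alternatives were a list of the 20000 highest peaks, a gap of 200 bp, chromosome X, a distance of 1 kb between the strains' peaks, other promoter distances, other TSSs, other thresholds, the mean percentile and a fixed window for GC content. Lists of BXH2 and BXH19 and the authors' variable and common sites were not used. The software was samtools 1.23.1, matplotlib 3.10.9, pysam 0.24.0, scipy 1.17.1, pandas 2.3.3 and numpy 2.4.6 under Python 3.11.15.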

Additional observations from a re-analysis of the deposited data

Results flagged for a closer look

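The mean GC content of the autosomal peaks of the A/J list, 60.1%, lay far from that of the other inbred lists. The next highest was 56.6% (DBA/2J) and the lowest 54.7% (BALB/cJ), so that the gap was 0.654 of the range of the 7 lists, above the 95% critical value of Dixon's ratio for 7 values. The 7 lists are strains and not replicates of a group, and chance flags about 1 in 20 groups. The cause was not tested.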

How the results depend on the processing

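No paired analysis was possible because each strain has 1 list that already joins its replicates, and for the same reason no replicate could be left out. Percentages were counted as moved where they left the interval of the reported value, numbers where they changed by over 1.5 times and other values where they changed by 1 or more. The order of the classes in promoter share, GC content and calls elsewhere was kept under every alternative that was run. With the 20000 highest peaks of each list, 48.0% of sites were shared, 7088 were BALB/cJ only and 6710 A/J only, with 104 strong BALB/cJ-only distal, 14 strong A/J-only promoter and 7 strong A/J-only distal sites. The promoter shares were then 9.52% (BALB/cJ only), 49.0% (A/J only) and 66.8% (shared), 36.1% of A/J-only sites were called elsewhere, and the median absolute difference at shared sites was 17.9 percentiles. Of the 49 named strong sites 18 stayed strong in 1 strain with these lists, 47 with a gap of 200 bp, 49 with chromosome X and 40 without a peak of the other strain within 1 kb. With a gap of 200 bp, 46.9% of sites were shared, 6.43% of BALB/cJ-only and 33.0% of A/J-only sites were promoters and 33.7% of A/J-only sites were called elsewhere. Without one-strain sites within 1 kb of the other strain's peaks, 9813 BALB/cJ-only and 8169 A/J-only sites remained. Then 49.8% of sites were shared and the promoter shares were 4.94% and 34.0%. Promoters within 500 bp gave shares of 4.94%, 31.7% and 53.6% for BALB/cJ-only, A/J-only and shared sites, within 2.5 kb 14.8%, 46.4% and 60.4%, and with TSSs of every biotype 11.8%, 45.6% and 60.1%. Strong BALB/cJ-only promoters then numbered 32 within 2.5 kb and 25 with every biotype. The threshold set the number of strong sites. From percentile 90 there were 0 and 1 BALB/cJ-only promoter and distal sites and 0 and 0 in A/J, and from percentile 50 there were 189, 2107, 1129 and 806. GC content over 300 bp at the centre was 61.1% for shared sites. Within 52 to 58% GC the promoter shares were 9.002%, 13.5% and 35.3%, and 51.2% of A/J-only sites were called elsewhere. Apart from the recomputed percentiles, the causes of these shifts were not tested. The lists limit the comparison, since a site without a peak may have reads below the authors' threshold.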

Other observations

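By chromosome, the share of sites called in both strains ran from 40.7% (chromosome 18) to 46.9% (chromosome 16). BALB/cJ-only sites made up 40.0% of sites on chromosome 13 and 22.9% on chromosome 7, and A/J-only sites 17.8% and 32.2%, with a mean GC content of 55.1% and 57.2%. Of 358 windows of 5 Mb with at least 30 sites, the median share of one-strain sites was 55.5%. The highest was 81.9% of 72 sites between 15 and 20 Mb of chromosome 8, followed by 77.5% of 40 sites between 15 and 20 Mb of chromosome 2, where 20 sites were A/J only and 11 BALB/cJ only. The next were 77.1% (chromosome 3, from 55 Mb), 76.3% (chromosome 2, from 50 Mb) and 75.8% (chromosome 5, from 40 Mb), with more BALB/cJ-only than A/J-only sites in each. The lowest was 34.4% of 32 sites between 35 and 40 Mb of chromosome 9, where 11 sites were A/J only and 0 BALB/cJ only. Windows with a share from 35.5 to 37.1% lay on chromosomes 9, 1 and 17.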
